A study of Oryza sativa with 6 samples.

Results

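The subject is the set of rice loci with the brightest array signals in root tips that had received no aluminium (Al). Its members were chosen by signal. Probe sets assigned to 1 locus were ranked by their mean log2 signal over the 3 arrays before Al, each locus was represented by its brightest probe set, and the 300 highest loci were taken from 34896. The tips, 0 to 1 cm long, came from Japonica rice seedlings 5 d old that had grown on 0.5 mM CaCl2, and 6 µg of total RNA per sample was labelled for the Affymetrix rice array. The other group of the study, also 3 arrays, held tips of seedlings given 50 µM Al in 0.5 mM CaCl2 at pH 4.5 for 6 h. The labels call the samples biological repeats without saying whether they came from separate cultures, and no pH is given for the seedlings before Al. A group kept for the same time without Al was not analysed here, so Al, time and pH cannot be told apart where the 2 groups are compared.

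The tip of a rice root holds the root cap, the meristem where cells divide and the zone where they elongate. Dividing and elongating cells make ribosomes, cytoskeleton and primary cell wall, and they fill their vacuoles with water. Many of the proteins for this work are encoded by multigene families, in which a few members can carry most of the transcript in a given organ.

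A locus's signal depends on how well its probes bind as well as on its transcript. The order of loci is therefore an order of signal, and a difference between the signals of 2 loci is not a ratio of their transcripts. The signals are MAS5 values, in which the match and mismatch probes of a set are combined into 1 number, and the software also calls each probe set present, marginal or absent. Of the ranked loci, 16499 were called present on all 3 arrays before Al and 15710 on none. Between 24836 and 24927 probe sets were called present per array, and correlations between arrays over probe sets called present rounded to 0.992. All 7 markers of root tissue were called present on every array, including RCc3 at rank 62, the silicon transporter Lsi1 at a mean log2 signal of 12.84 and QHB, a homeobox gene of the quiescent centre, at 6.72. Of 37 photosynthesis loci, 12 were called present on all 3 arrays and none was in the set, with a highest mean log2 signal of 8.61 for a small subunit of Rubisco. Of 36 seed loci 7 were called present, the brightest a late embryogenesis abundant protein at 11.69, and of 12 pollen loci 1 was called present, with 6.62 the highest mean in that list.

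The set covered a narrow band at the top of the scale. Its mean log2 signals ran from 14.79 at rank 1 to 13.82 at rank 300, a range of 0.98 log2 units, with a median of 14.11. The median was 9.75 over all loci called present on the 3 arrays and 5.99 over all ranked loci. The loci at ranks 500, 1000 and 5000 had means of 13.54, 12.97 and 10.85. No value on any array before Al exceeded 14.84, and the highest value of each array was at least 14.76. Whether the brightest probes were saturated in the scan was not tested, since scanner values were not used here. The set made up 0.860% of the ranked loci and 15.4% of their summed linear signal.

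**Figure D1:**
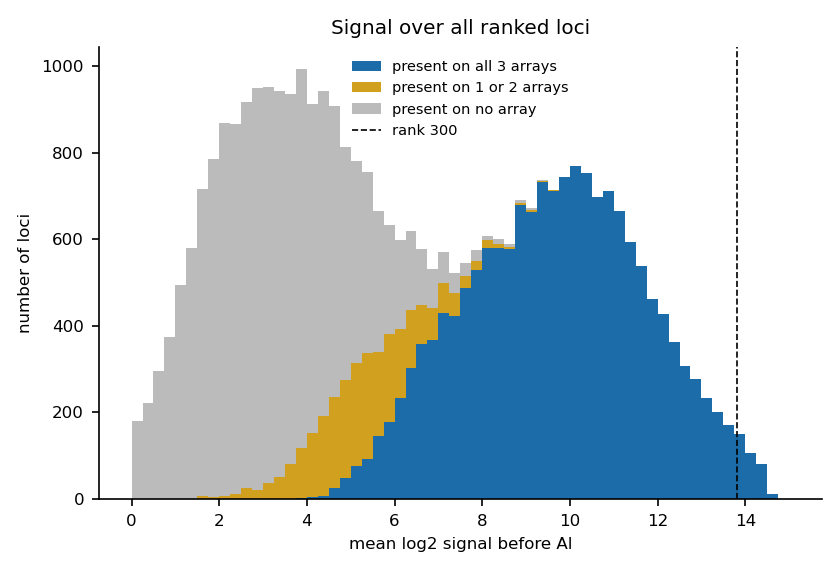
Number of ranked loci (vertical axis) by mean log2 signal over the 3 arrays before Al (horizontal axis), stacked by detection call. The dashed line marks rank 300 at 13.82, and the 300 loci to its right are the brightest end of the loci called present on all 3 arrays.

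The brightest locus was LOC_Os12g43600, annotated as glycine-rich RNA-binding protein 2, of a family of small proteins that bind RNA. It gave log2 signals of 14.84, 14.79 and 14.76 on the 3 arrays and ranked first on each. Cytosolic malate dehydrogenase, LOC_Os10g33800, which interconverts malate and oxaloacetate, followed with 14.67, 14.67 and 14.66. A polyubiquitin locus, LOC_Os02g06640, which encodes ubiquitin monomers joined end to end, had 14.75, 14.59 and 14.61. Its array values overlapped those of malate dehydrogenase, so ranks 2 and 3 were not set apart by the arrays. The glycolytic enzyme enolase, LOC_Os10g08550, had 14.59, 14.61 and 14.52. Actin-1, LOC_Os03g50890, a subunit of the microfilament, had 14.57, 14.59 and 14.52. OsIAA13, LOC_Os03g53150, an Aux/IAA repressor of auxin-responsive transcription, had 14.56, 14.61 and 14.52. The 3 loci lay within the spread of their arrays. LOC_Os12g38140, annotated only as an expressed protein, stood at rank 5 with 14.58, 14.63 and 14.51, and a second locus of this kind, LOC_Os06g47230, at rank 15 with a mean of 14.48 ± 0.05 (SD, n = 3).

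Ranks 8 to 20 held loci of translation, the cytoskeleton and the wall beside others. The ribosomal proteins L37a, L23, S3a, L39 and S20 had means of 14.56, 14.55, 14.55, 14.47 and 14.44. An ADP-ribosylation factor, LOC_Os05g41060, of the GTPases that recruit vesicle coats, had a mean of 14.52 ± 0.11, and the mitochondrial ATP synthase beta chain, LOC_Os01g49190, had 14.51 ± 0.12 (SD, n = 3 each). The alpha tubulins LOC_Os03g51600 and LOC_Os07g38730 both had a mean of 14.49. The glycine-rich wall protein LOC_Os10g31660 had 14.48, the calcium-binding chaperone calreticulin, LOC_Os07g14270, had 14.45, and profilin-2, LOC_Os06g05880, which binds actin monomers, had 14.43. Array 3 held the lowest of the 3 values for 18 of these 20 loci and for 191 of the 300, against 20 of the 300 for array 2 and 89 for array 1. The median log2 signal of the set was 14.09, 14.15 and 14.11 on arrays 1, 2 and 3, differences that are small beside the range of the set.

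**Figure D2:**
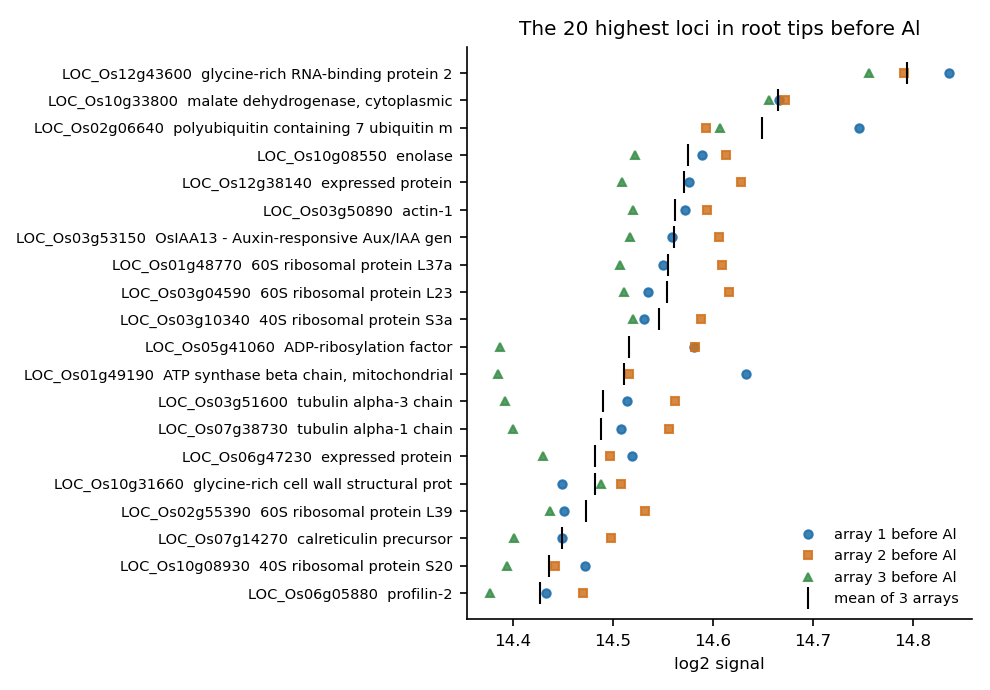
Log2 signal (horizontal axis) of the 20 loci with the highest mean before Al, 1 symbol per array and a vertical bar for the mean of the 3 arrays. The locus at rank 1 stands alone at a mean of 14.79, and for most of the loci below it the arrays of neighbouring ranks overlap.

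Translation was the largest group by count. Of 268 loci in its families, 107 were in the set, 35.7% of the set. Ribosomal proteins of the 40S and 60S subunits, the structural proteins of the cytosolic ribosome, supplied 96 of them. These were 33 of 75 measured 40S loci and 63 of 115 measured 60S loci. They made up 32.0% of the set and 0.544% of all ranked loci. A 95% Wilson interval around the 32.0% ran from 27.0 to 37.5%, but the set is a fixed list chosen by signal, not a random draw. The interval therefore measures no sampling error and served only as a yardstick for the share under other settings. Enrichment was not tested. Among the 100 highest loci 34 were ribosomal. Their median over all 190 loci, 13.82, lay at the level of rank 300, so the boundary of the set ran through the middle of this family. Only 6 of the 190 were called present on no array.

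Rice carries several loci for most ribosomal proteins, and the distance between the brightest and the next varied from protein to protein. Of 67 named proteins with at least 2 measured loci, 30 had at least 2 of them in the set, 28 had exactly 1 and 9 had none. In 25 of the 67 the brightest locus lay under 0.25 log2 units above the next, and in 9 it lay at least 1 log2 unit above. L23 had all 3 of its loci in the set, led by LOC_Os03g04590 at 14.55 and with a lowest mean of 14.25. The distance was widest of the 67 for L5, where LOC_Os01g67134 gave 14.37, 14.39 and 14.38 on the 3 arrays, whereas LOC_Os09g08890 had a mean of 6.59 ± 0.36 and was still called present on all 3. For S26, LOC_Os01g60790 had a mean of 14.32 and LOC_Os05g39960 12.32, and for S9, LOC_Os11g38959 had 14.40 and LOC_Os03g05980 12.77. The probe sets of the brighter L5 and S9 loci are each noted in the deposited annotation to bind 1 further locus.

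The other translation factors in the set were elongation and initiation factors. Both measured loci of elongation factor 1-alpha, which brings aminoacyl-tRNA to the ribosome, were members. They are LOC_Os03g08020 with a mean of 14.42 ± 0.04 and LOC_Os03g08010 with 14.41 ± 0.06 (SD, n = 3), neighbours on chromosome 3 whose probe sets are each noted to bind 3 further loci. A probe set assigned to 4 elongation factor 1-alpha loci, and therefore outside the ranking, was brighter still at 14.80. Of 5 loci of elongation factors 1-beta, 1-delta and 1-gamma 2 were members, LOC_Os07g42300 at 14.37 ± 0.13 and LOC_Os07g46750 at 14.28 ± 0.06. Elongation factor 2, the translocase, had 1 bright locus of 4, LOC_Os02g32030 at 14.26, with LOC_Os04g02820 next at 13.00. Of 66 initiation factor loci 5 were members, led by the SUI1 factor LOC_Os07g34589 at 14.14 ± 0.08 and by LOC_Os03g55150, a factor 5A locus, at 14.11 ± 0.11. The translationally controlled tumor protein, LOC_Os11g43900, had 14.18.

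In the glycine-rich RNA-binding family, 4 of 9 loci were members. The leader at 14.79 was followed by LOC_Os03g46770 at 14.40 ± 0.06, and this gap exceeded the spread of the arrays. The leader stands on a probe set marked as shared, and its other probe sets gave means of 13.47 and 7.88. Of the 10 polyubiquitin and ubiquitin fusion loci 5 were members, and LOC_Os02g06640 at 14.65, also on a shared probe set, was followed by LOC_Os03g13170, a ubiquitin fused to another protein, at 14.02 ± 0.06. This order rested on the probe set, since LOC_Os03g13170 led the family both without shared probe sets and with the mean over all probe sets of a locus. The other 4 probe sets of LOC_Os02g06640 had means of 13.92, 13.81, 11.17 and 9.20. The folding families listed were led by the cyclophilin LOC_Os02g02890 at 14.31, the protein disulfide isomerase LOC_Os11g09280 at 14.30 and LOC_Os09g30412 of the heat shock protein 80 and 90 group at 14.14. None of the 24 loci of heat shock protein 70, chaperones that hold unfolded chains, was a member, the brightest having 13.60, and none of the 17 small heat shock proteins was, the brightest having 11.29. Of the 43 histone loci 1 was a member, the H2A locus LOC_Os03g17100 at 13.83.

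The cytoskeleton families supplied 13 members of 35 loci. Of 5 alpha tubulins, subunits of the microtubule, 3 were members and 2 were far dimmer. LOC_Os03g51600 gave 14.51, 14.56 and 14.39 on the 3 arrays and LOC_Os07g38730 gave 14.51, 14.56 and 14.40, so the 2 leaders could not be ordered. LOC_Os11g14220 had 14.22, and the next locus, LOC_Os03g11970, had 9.65 ± 0.23. The beta tubulins were spread more evenly. Of 9 loci 5 were members, from LOC_Os02g07060 at 14.15 ± 0.10 and LOC_Os05g34170 at 13.97 ± 0.06 down to LOC_Os01g59150 at 13.83, and another 2 stood just below the boundary at 13.78 and 13.72. Of 11 actins 3 were members, with actin-1 at 14.56 followed by LOC_Os11g06390 at 14.41 ± 0.09 and LOC_Os10g36650 at 13.83. Actin-1 stands on a probe set marked as shared, and its other probe set had 13.60. LOC_Os11g06390 led the family both without shared probe sets and with the mean over all probe sets of a locus. The actin-depolymerizing factor LOC_Os03g60590, which severs filaments, had 14.29.

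Wall and surface families supplied 22 members of 371 loci, or 5.93%, where 0.860% of all ranked loci were members. The RCc3-like proteins, small proline-rich proteins annotated as cortical cell-delineating proteins, were the largest group with 6 members of 18 loci. LOC_Os10g40480 gave 14.32, 14.40 and 14.28, and LOC_Os02g44310, RCc3 itself, gave 14.35, 14.36 and 14.25. Their arrays overlapped. The other 4 members had means between 13.96 and 14.31. Of the 6, 4 carry neighbouring locus numbers on chromosome 10, LOC_Os10g40480, LOC_Os10g40510, LOC_Os10g40520 and LOC_Os10g40530, and the only 2 expansins of 44 in the set lie close by. These are LOC_Os10g40710 at 14.29 ± 0.10 and LOC_Os10g40700 at 14.23 ± 0.07, both annotated as beta-expansin 1a, of the proteins that loosen walls. The next brightest expansin, the alpha-expansin LOC_Os05g19570, had 13.01. The further beta-expansin 1a loci of the same run, LOC_Os10g40720 and LOC_Os10g40730, both had a mean of 12.85.

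Cellulose synthase, the enzyme that spins cellulose at the plasma membrane, had 3 members of 10 loci. CESA6, LOC_Os07g14850, gave 14.18, 14.21 and 14.16, above the arrays of CESA1, LOC_Os05g08370, at 13.91, 14.05 and 13.80. CESA8 had 13.83 and CESA3 13.66. In rice CESA1, CESA3 and CESA8 are assigned to the primary wall, and CESA4, CESA7 and CESA9 are known from brittle culm mutants of the secondary wall. The latter had means of 12.65, 12.79 and 9.51. Fasciclin-like and other arabinogalactan proteins, which sit on the cell surface, had 4 members of 30, led by the neighbours LOC_Os05g48890 at 14.36 ± 0.04 and LOC_Os05g48900 at 14.34 ± 0.05. Class III peroxidases, secreted enzymes that crosslink or loosen walls, had 3 members among 115 loci, LOC_Os05g41990 at 14.17 ± 0.07, LOC_Os01g19020 at 13.96 ± 0.05 and LOC_Os03g25330 at 13.90. No xyloglucan endotransglucosylase was a member, the brightest of 27 having 13.49.

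Transport families supplied 13 members of 59 loci, 7 of them aquaporins, the channels for water. Of 11 aquaporins of the plasma membrane (PIP) 4 were members. PIP2.1, LOC_Os07g26690, gave 14.36, 14.42 and 14.34, and PIP1.1, LOC_Os02g44630, gave 14.45, 14.40 and 14.25, with overlapping arrays. PIP1.2 had 14.31 and PIP2.2 14.04. Of 10 aquaporins of the vacuole membrane (TIP) 3 were members and the other 7 lay far below. TIP2.2, LOC_Os06g22960, gave 14.49, 14.45 and 14.24, TIP1.1, LOC_Os03g05290, gave 14.37, 14.38 and 14.32, and TIP2.1, LOC_Os02g44080, had a mean of 14.30. The next, a TIP4.1 locus, LOC_Os05g14240, had 9.66 ± 0.08. The 3 bright TIP loci all stand on probe sets marked as shared, and without such probe sets no TIP was in the set. LOC_Os02g44080 then led its family at 13.23, rank 587 of that ranking. The vacuolar proton pumps, which energise transport into the vacuole, had 5 members of 26, led by subunit B of the ATPase, LOC_Os06g37180, at 14.30 ± 0.03 and by the pyrophosphatase LOC_Os06g43660 at 14.21 ± 0.10. The proton ATPases of the plasma membrane had none of 6, with LOC_Os04g56160 the brightest at 13.62.

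The listed families of mitochondrial respiration, both added to the list after levels were seen, supplied 13 members of 28 loci. They do not cover all of respiration. LOC_Os01g52214, a subunit of NADH-ubiquinone oxidoreductase, was a member at 13.92 but is not counted among them. Of 9 ATP synthase loci 6 were members, led by the beta chain LOC_Os01g49190 at 14.51 and LOC_Os02g03860 at 14.35 ± 0.03. Of 19 loci of cytochromes and of the ubiquinol-cytochrome c reductase, of the chain that carries electrons towards oxygen, 7 were members. They were led by cytochrome c1, LOC_Os05g23620, at 14.25 ± 0.05 and cytochrome c, LOC_Os05g34770, at 14.18 ± 0.04. The ADP/ATP carrier LOC_Os02g48720, which exports ATP from the mitochondrion, had 14.38.

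In glycolysis, glyceraldehyde-3-phosphate dehydrogenase had 3 members of 8 loci, all cytosolic. LOC_Os02g38920 gave 14.41, 14.42 and 14.33, above LOC_Os04g40950 at 14.20, 14.23 and 14.27, and LOC_Os08g03290 had 14.21. The 2 loci annotated as the chloroplast A and B subunits were called present on no array, at 3.35 and 2.99. Enolase had 1 bright locus of 5, at 14.57, with LOC_Os03g14450 next at 13.32. Triosephosphate isomerase had LOC_Os01g05490 at 14.11, and phosphoglycerate kinase had LOC_Os02g07260 at 14.08. Sucrose synthase, aldolase, alcohol dehydrogenase and pyruvate decarboxylase had no members. The brightest aldolase, LOC_Os05g33380 at 13.78, lay just below the level of rank 300, 13.82. The brightest pyruvate decarboxylase, LOC_Os03g18220, had 12.95 ± 0.06 and the next, LOC_Os01g06660, 6.71 ± 0.16. The methyl cycle, which regenerates S-adenosylmethionine, had 3 members, adenosylhomocysteinase LOC_Os11g26850 at 14.42, methionine synthase LOC_Os12g42884 at 14.32 and S-adenosylmethionine synthetase LOC_Os05g04510 at 14.08. Glutamine synthetase, which assimilates ammonium, had LOC_Os02g50240, annotated as root isozyme 3, at 14.40 ± 0.07, and LOC_Os03g12290, annotated as root isozyme 5, at 13.31 ± 0.03.

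Signalling families held 11 members of 111. The 14-3-3 proteins, which bind phosphorylated partners, had 3 members of 7, LOC_Os03g50290 at 14.26 ± 0.06, LOC_Os04g38870 at 14.04 ± 0.04 and LOC_Os08g37490 at 13.90. ADP-ribosylation factors had 3 members of 15, and after LOC_Os05g41060 came the neighbours LOC_Os07g12170 at 14.29 ± 0.03 and LOC_Os07g12200 at 14.11 ± 0.01. The nuclear transport GTPase Ran had LOC_Os05g49890 at 14.30 and its second locus, LOC_Os01g42530, at 12.43. Of 29 Aux/IAA loci 2 were members, OsIAA13 at 14.56 and OsIAA30, LOC_Os12g40890, at 14.05. Redox and defence families held 6 members of 285, or 2.11%, where 0.860% of all ranked loci were members. The brightest were the glutathione S-transferase GSTF2, LOC_Os01g55830, at 14.35 and superoxide dismutase 1, LOC_Os03g22810, at 14.26. Metallothioneins, catalases, chitinases, pathogenesis-related proteins and glutaredoxins had no members.

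**Figure D3:**
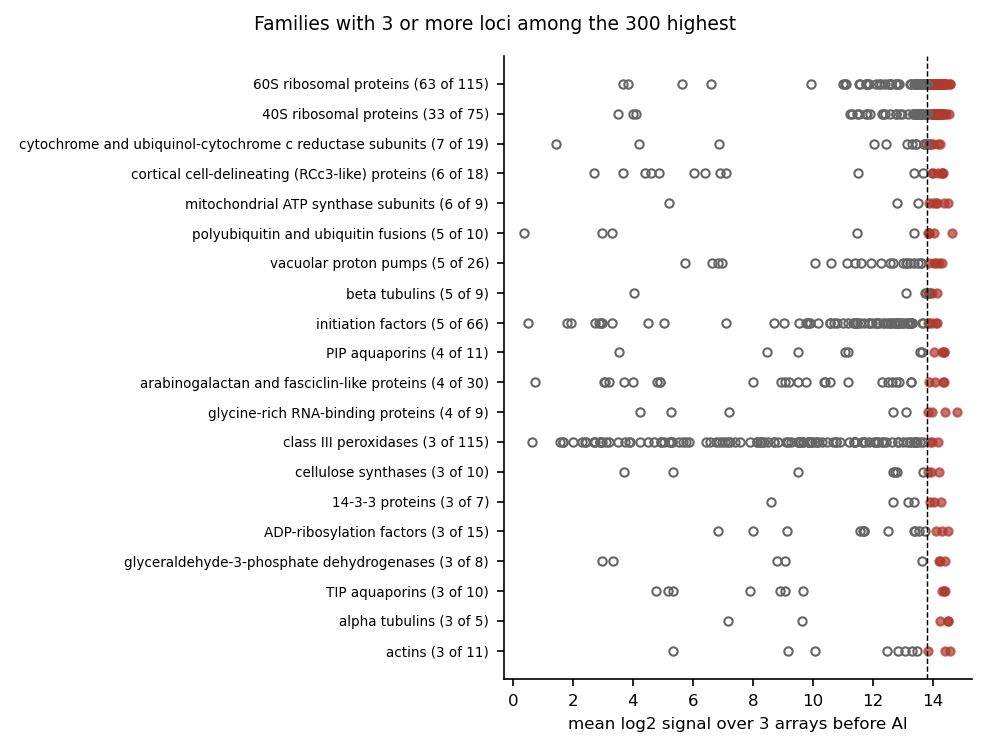
Mean log2 signal over the 3 arrays before Al (horizontal axis) of every measured locus of the 20 families with at least 3 loci in the set, 1 point per locus. Filled points are members, open points lie below the dashed line at rank 300, and the numbers in brackets give members and measured loci. Alpha tubulins and TIP aquaporins have a wide gap between members and the rest, whereas initiation factors and class III peroxidases run from the members downwards without one.

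Over the 71 families measured, 20 had at least 3 members, 33 had 1 or 2 and 18 had none. Families together held 213 of the 300 members, and 87 lay outside them. In 49 families with at least 2 measured loci the leader was a member. In 23 of these it lay under 0.25 log2 units above the next locus, and in 6 at least 1 log2 unit above. Those 6 were elongation factor 2, enolase, glutamine synthetase, Ran, superoxide dismutase, and the proline-rich proteins and extensins. The last was led by the extensin LOC_Os04g34170, a structural wall protein, which had the largest spread of any member with 14.34, 14.25 and 13.99. The next largest spreads were those of ribosomal protein L15, LOC_Os03g40180, with 13.87, 14.09 and 13.77, and of ATP-citrate synthase subunit 1, LOC_Os01g19450, with 14.41, 14.38 and 14.13. Array 3 was lowest in all 3 loci.

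The members outside the families that are named here were picked as single examples after their values were seen, with no list behind them. UDP-glucose 6-dehydrogenase, LOC_Os12g25690, which makes UDP-glucuronate, had 14.35, the UTP-glucose-1-phosphate uridylyltransferase LOC_Os09g38030 had 14.24, and UDP-glucuronic acid decarboxylase, LOC_Os03g16980, had 14.12. Phenylalanine ammonia-lyase, LOC_Os02g41630, the entry to phenylpropanoids, had 14.19, and caffeoyl-CoA O-methyltransferase, LOC_Os08g38900, and cinnamyl alcohol dehydrogenase, LOC_Os02g09490, had 14.10 and 13.99. ATP-citrate synthase, which makes cytosolic acetyl-CoA, had LOC_Os01g19450 at 14.31 and LOC_Os11g47330 at 14.29, acyl carrier protein 2, LOC_Os09g36860, had 14.40, and acetyl-CoA carboxylase, LOC_Os05g22940, had 14.03. Other members were the remorin LOC_Os04g45070, a plasma membrane protein, at 14.37 and the clathrin heavy chain LOC_Os12g01390 of coated vesicles at 14.27. Another 10 members had no product beyond an expressed protein.

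Several features that the ranking did not use set the members beside the other loci called present. The array was designed from clusters of public cDNA sequences, and the median cluster behind a member's probe set held 36 sequences, against 4 for the other loci called present on all 3 arrays and 1 for all ranked loci. The largest, behind the translationally controlled tumor protein, held 679, and 24 members rested on 1 sequence. The probe sets' alignments spanned a median of 2507 bases for the 282 members with 1 alignment, against 3254 for 15641 other present loci. Chromosome 3 held 48 members, 1.20% of its ranked loci, and chromosome 12 the smallest share at 0.529%. Members whose locus numbers lay within 100 of each other formed 31 groups with 67 loci, of which 10 groups with 22 loci were of 1 family. These included the RCc3-like run, the beta-expansin pair, and the elongation factor 1-alpha pair. The same count was not made for other loci, so whether members lie close together more often than other loci was not tested. Positions in bases are left out because the labels and headers name no genome build.

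Probe choice had a share in the ranking. Of the 300 members 77 (25.7%) stood on probe sets with names ending in a_at, s_at or x_at, which Affymetrix uses for probes shared among transcripts or genes, against 20.03% of loci called present on all 3 arrays. Among the 20 highest loci 10 did. The annotation noted binding to another locus for 25 members (8.33%) and for 6.78% of ranked loci. Without shared probe sets, 9 of 20 family leaders were the same, and the members of the glycine-rich RNA-binding, polyubiquitin, PIP and arabinogalactan families numbered 1, 2, 2 and 1 in place of 4, 5, 4 and 4. With the mean over all probe sets of a locus in place of the brightest, 10 of 20 leaders were the same, and the members of the initiation factor, polyubiquitin, PIP and arabinogalactan families numbered 3, 3, 2 and 2 in place of 5, 5, 4 and 4. Under both settings the leader changed for the 40S ribosomal proteins, PIP aquaporins, actins, alpha tubulins, arabinogalactan and RCc3-like proteins. It also changed under both for the glycine-rich RNA-binding, polyubiquitin and mitochondrial ATP synthase families. Another 27 probe sets at or above the level of rank 300 could not be ranked, 15 because they are assigned to several loci and 12 because they are assigned to none. Those of several loci included heat shock protein 81-3 at 14.61, a thionin at 14.32, and the ribosomal proteins L29, L44 and S11 at 14.48, 14.25 and 13.98. The counts of members per family leave these probe sets out.

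For 68 members a second probe set gave a further reading of the same locus. The second brightest minus the brightest had a median of -0.90 log2 units, against -1.52 in 3924 other present loci with several probe sets. In 36 of the 68 it was within 1 log2 unit, in 19 it was itself at or above the level of rank 300, and in 16 it was at least 3 log2 units lower. PIP2.1, LOC_Os07g26690, had means of 14.24 and 13.92 on its other probe sets, which like the brightest are marked as shared. The second brightest was far dimmer for other named members, with 8.28 for PIP1.1, 7.73 for PIP2.2 and 7.76 for CESA1. For the glyceraldehyde-3-phosphate dehydrogenase LOC_Os04g40950 it had 6.70 and was called present on no array. TIP2.1, LOC_Os02g44080, had 13.23 on one and 0.34 on another that was called present on no array. The remaining 232 members had 1 probe set and no such reading.

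**Figure D4:**
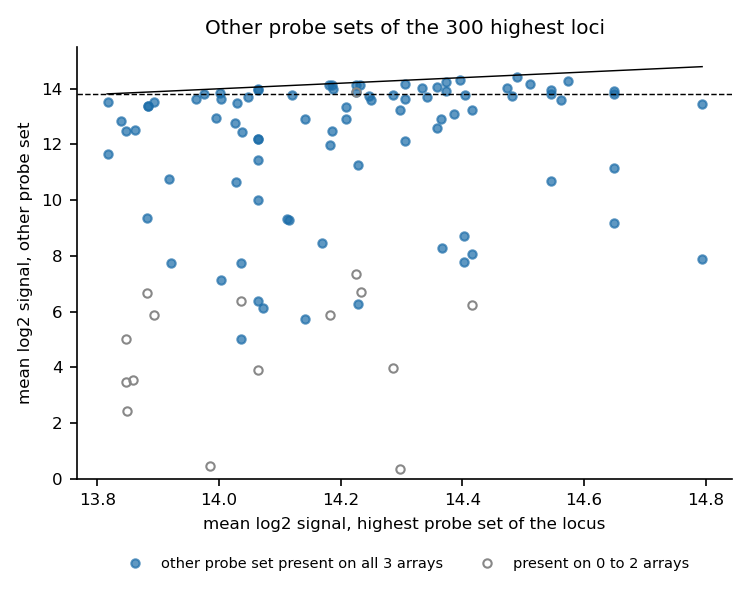
Mean log2 signal before Al of the 103 other probe sets of the 300 loci (vertical axis) against that of the brightest probe set of the same locus (horizontal axis). The diagonal marks equal signals and the dashed line rank 300. Of the points 23 lie at or above the dashed line, and a tail reaches down to 0.34.

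The arrays before Al differed little over the members. The median SD over the 3 arrays was 0.050 log2 units for the members and 0.096 for other loci called present, and 90.3% and 51.7% of them had an SD of at most 0.1. For ranked loci called present on no array it was 0.82. The SD thus varied with signal level, and no trait of the members is read from it. Despite the small SDs, neighbouring ranks could rarely be separated, since in 1 of 299 neighbouring pairs the array values of the 2 loci did not overlap. On single arrays, 265 members were among the 300 highest on all 3, 28 on 2 and 7 on 1. The median difference between a member's highest and lowest rank over the arrays was 32 places. At the boundary, the small nuclear ribonucleoprotein G at rank 300, LOC_Os07g41790, gave 13.84, 13.85 and 13.75, and ribosomal protein SA just below it, LOC_Os03g08440, gave 13.84, 13.88 and 13.72. For 230 members all 3 arrays lay above the highest array of that locus.

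Most of the set was still at the top after Al. Of the 300 members 259 (86.3%) were also among the 300 highest loci after Al, 296 were among the 500 highest, and the lowest had rank 849. In limma's test across 25283 probe sets with a present call on 3 or more arrays of both groups together, with an adjusted p under 0.05, 5 members (1.67%) were higher and 33 (11%) lower after Al, where 14.3% of all probe sets tested were higher and 15.9% lower. No member changed by 2-fold. The median change was -0.04 log2 units for the members and -0.04 for all probe sets tested. The members were chosen on the arrays before Al, which favours falls over rises, and nothing is read here from the balance between them. The count of higher members depended on the settings, with 13 higher against 36 lower after quantile normalization, 2 with each array centred on its median, 11 without the third array after Al and 2 or 3 without any one of the other 5 arrays. The count of lower members was 15 without the intensity trend in the variance and 21 without the second array before Al.

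Of the 5 members that rose, 3 were polyubiquitin loci, and 2 of these, LOC_Os06g46770 and LOC_Os02g06640, stand on probe sets marked as shared. Without shared probe sets 3 members were higher. Polyubiquitin OUB2, LOC_Os05g42424, gave 13.93, 13.91 and 13.80 before Al and 14.27, 14.19 and 14.08 after, a change of 0.30 ± 0.06 log2 units (SE, limma adjusted p = 0.0048). Its groups did not overlap. LOC_Os06g46770, a second polyubiquitin, rose by 0.18 ± 0.05 (SE, limma adjusted p = 0.029), and LOC_Os02g06640 passed with 0.21 ± 0.06 (limma adjusted p = 0.031) though its groups overlapped. The glutathione peroxidase LOC_Os04g46960, annotated as acting on phospholipid hydroperoxides, rose from 13.89 to 14.17 (limma adjusted p = 0.0023), and the expressed protein LOC_Os10g08780 rose from 14.21 to 14.37 (limma adjusted p = 0.028).

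The falls are given as a description, since the arrays before Al both chose the members and served as the baseline of the test. Their p-values are therefore not independent of that choice. PIP2.2, LOC_Os02g41860, gave 14.02, 14.04 and 14.05 before Al and 13.43, 13.18 and 13.33 after, a change of -0.73 ± 0.06 (SE, limma adjusted p = 2.1e-05). Its probe set is marked as shared, and the other probe sets of the locus had means of 7.73, 6.37 and 5.03 before Al. The level and the fall may therefore include other transcripts. TIP2.2, LOC_Os06g22960, also on a shared probe set, fell from 14.39 to 13.85 (limma adjusted p = 0.0016). The tubulin beta-6 chain, LOC_Os05g34170, fell from 13.97 to 13.39 (limma adjusted p = 0.00041). The array values of both loci did not overlap between groups. The largest falls were those of an RNA recognition motif protein, LOC_Os03g17760, from 13.97 to 13.09 (limma adjusted p = 1.0e-05), and of LOC_Os04g57560, annotated as lysine-specific histone demethylase 1, from 14.15 to 13.28 (limma adjusted p = 8.2e-07). In tips of mixed tissue, fewer cells of a type and less RNA per cell cannot be told apart.

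**Figure D5:**
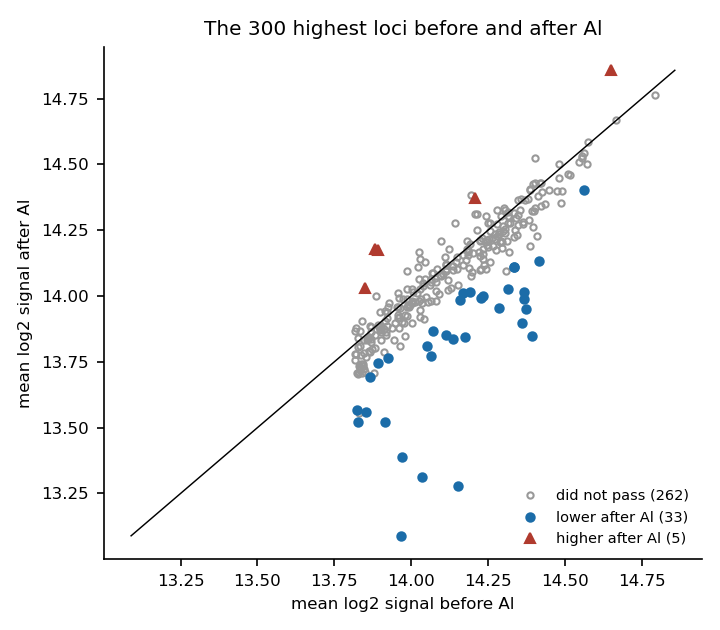
Mean log2 signal after Al (vertical axis) against before Al (horizontal axis) for the 300 members, 3 arrays each. The line marks equal means, and colours give limma's call at an adjusted p under 0.05. Most members lie along the line, and 5 triangles above it and 33 filled circles below it passed the test.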

How the data were processed

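RNA of 6 samples, 3 before and 3 after Al, was hybridised to the Affymetrix rice array, and 1 array was used per sample. The authors deposited log2 signals and detection calls made with MAS5, per the submitters' processing notes; no source used here gives the software version, scaling target or genome build. The trimmed means of the linear values lay between 497 and 497.2 on the 6 arrays, and the values in both deposited tables were equal. The p-value and fold ratio columns of the deposited table, whose making is not stated, were not used. Of 57258 probe sets, 43020 carry 1 locus in the deposited annotation, 1371 several and 12867 none. The number of arrays, 3 per group, limits the precision.

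Loci were ranked by mean log2 signal without a filter. Families were found by words in the annotated products. Words that took in other proteins were narrowed, and 4 families (vacuolar proton pumps, mitochondrial ATP synthase, cytochromes with ubiquinol-cytochrome c reductase, Aux/IAA) were added after levels were seen. The members and lists were chosen with earlier results of these data known. Named are the 20 highest loci, the leader and next locus of each family with at least 3 members, the 3 largest SDs, the loci on either side of the boundary, up to 5 of the largest rises and falls after Al that passed with groups that do not overlap (4 rises did), and tissue markers; others are examples chosen after their values were seen. Groups were compared with limma 3.58.1 in R 4.3.3 (lmFit, eBayes with an intensity trend, all 6 arrays, Benjamini-Hochberg over probe sets called present on at least 3 arrays), tested on simulated data. With no statement of separate cultures, p-values reflect the spread among the arrays, which may be technical. The main test did not pair samples by replicate number. Correlations of deviations were 0.070, 0.0011 and 0.087 for same-numbered arrays and ran from -0.092 to 0.021 for the others. These weak values do not settle whether the numbers pair the samples. Replicate numbers were taken from the titles, and the deposited columns of the arrays after Al carry other numbers. Alternatives covered averaging, probe choice, filters, normalization and leaving out each array. No sequence is printed.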

Additional observations from a re-analysis of the deposited data

How the results depend on the processing

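Of 231 values recomputed under other settings, 206 stayed within 1.5 times the reported count or within its interval, and 25 moved. Some could not move. All 300 members were called present on all 3 arrays before Al, so ranking only loci so called had to return the same set. The tally is therefore no measure of robustness. The 300 loci shared 300 with the ranking by linear means or after quantile normalization, 256 with the mean over all probe sets of a locus, 234 without shared probe sets and 291 to 294 when 1 array was left out. Family leaders were the same in 10 of 20 families with the mean over all probe sets and in 9 of 20 without shared probe sets. The ribosomal share was 24.6% among the 500 highest loci. This lay below its Wilson interval and was tallied as moved, but the interval is only a yardstick and the longer list is a different set. The count of members higher after Al, 5 as reported, was 2 without the intensity trend, 2 with no filter, 13 after quantile normalization, 2 with arrays centred on their median, 3 without shared probe sets, and 2 to 11 when 1 array was left out. The count of lower members, 33 as reported, was 15 without the trend and 21 to 38 when 1 array was left out. With the replicate number as a block 6 members were higher and 38 lower, and the block moved no count by over 1.5 times. The cause of these shifts was not tested, except that leaving out an array leaves fewer samples. The array numbers and the narrow band of signals limit how far single ranks can be told apart.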
